A study of Mus musculus with 6 samples.

Results

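Perilipins and CIDE proteins coat lipid droplets (LDs), and their 8 mouse genes, Plin1, Plin2, Plin3, Plin4, Plin5, Cidea, Cideb and Cidec, were taken by symbol from the 48967 gene identifiers counted in 2-cell embryos. All 8 were found, and 6 passed the filter on low counts that left 16020 genes for testing, whereas Cidea and Cidec did not. RNA was measured in 6 libraries of wild-type F1 (C57Bl/10 X CBA/H) embryos, each a pool of 3 embryos, with 3 control and 3 delipidated libraries. Control embryos were kept in KSOM medium free of fatty acids from 0.5 to 2.0 dpc, a time labelled day 2. Delipidated embryos shared this culture, and before it their LDs had been removed at the zygote stage by spinning for 10 min at 4200 g and again at 9500 g with 50 µg/mL cytochalasin B, with a hyperosmotic sucrose solution added between the spins, opening the zona with a laser and aspirating the LDs. According to the methods, control zygotes were cultured only, so loss of lipid cannot be told apart from centrifugation, cytochalasin B, the hyperosmotic solution and opening of the zona. All tubes came from 1 pool of embryos, so p-values measure only the spread between tubes.

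A lipid droplet is a core of neutral lipid under a phospholipid monolayer, and perilipins bind that surface and control the access of lipases to the core. Plin2 and Plin3 are made in most cells, while Plin1, Plin4 and Plin5 are known from fat, muscle and other tissues with high lipid turnover. CIDE proteins sit where droplets touch and promote lipid transfer between them, so that droplets grow.

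Plin2 had the highest mean level of the 8 genes and did not differ between the groups beyond the spread of the libraries. No member was called, 0 of the 6 tested, by edgeR's quasi-likelihood test, which required both a log2 fold change beyond 1 and an adjusted p-value under 0.05, where the share called among all genes was 0%. At an unadjusted p-value under 0.05 edgeR gave 0 of the 6 members, against 2.89% of all genes (463 genes). The Wald test of DESeq2, run on all genes unfiltered, called 49 genes, or 0.252% of the 19443 genes it adjusted, and 0 members, with Plin5 as the 1 member under an unadjusted p-value of 0.05, as were 4.35% of the 30850 genes given a p-value. For 0 of the 8 genes did the delipidated libraries lie above every control library, which held for 3.81% of all tested genes, and for 0 did they lie below, against 5.05%. The smallest two-sided exact permutation p-value that 3 against 3 libraries can give is 0.1.

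Depth differed between libraries. The counts assigned to genes were 12164963, 16165958 and 12980787 in control replicates 1 to 3 and 20059460, 16332103 and 14683741 in delipidated replicates 1 to 3. Genes with at least 1 count numbered 22855, 22437 and 20582 in the control and 17091, 19408 and 20158 in the delipidated libraries. Every delipidated library thus had fewer such genes than every control library. Delipidated replicate 1 had the most counts and the fewest genes. Counts were deposited per exonic part, a piece of an exon that overlaps no other piece, and a read that crosses parts is counted in each, so sums over parts exceed the number of reads. A count of 0 allows up to 3 counts, which is between 0.148 and 0.253 CPM (the TMM-scaled share of a library's counts) in these libraries and covers counting error only.

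Plin2, the perilipin of most cell types (ENSMUSG00000028494, reverse strand, chr4:86648386-86670060 in GRCm38), had 366, 680 and 589 counts in control replicates 1 to 3 and 406, 745 and 393 counts in delipidated replicates 1 to 3. These were 30.9, 41.1 and 44.8 CPM in the control and 20.05, 45.8 and 27.7 CPM in the delipidated libraries. Delipidated replicate 2 was the highest of all and delipidated replicate 1 the lowest, and the groups overlapped. The means were 38.9 ± 7.20 CPM and 31.2 ± 13.2 CPM (SD over 3 libraries each), with a two-sided exact permutation p of 0.5. Delipidated against control, the log2 fold change was -0.32 (standard error 0.38) with a 95% interval from -1.15 to 0.51, and its adjusted p-value from edgeR was 1.00. It was -0.21 without control replicate 3, -0.081 without delipidated replicate 1 and -0.70 without delipidated replicate 2, and -1.02 when the part with most counts stood for each gene.

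The exons covered show where the Plin2 counts came from. Its 22 exonic parts held counts on 16, 14 and 14 parts in the control and on 12, 16 and 15 parts in the delipidated libraries. The 12 parts with coding bases took 94.2% of its counts over all libraries. Parts 1 and 2, the annotated first exon at chr4:86669987-86670060 and chr4:86669945-86669986, had 0 counts in all 6 libraries. Part 18, the coding part with most counts (chr4:86657156-86657404), had 66, 111 and 56 counts in control replicates and 41, 78 and 23 in delipidated ones, and the groups overlapped. Of the 18 parts with a count, the delipidated libraries lay above every control library in CPM on 1 and below on 2, against 2.94% and 3.96% of the 239338 parts with a count over all tested genes, and no test was made of single parts. These 3 parts are named after their values were seen. Part 6 (chr4:86668367-86668562) was higher, at 1.83, 3.69 and 2.40 CPM in delipidated replicates against 1.10, 1.15 and 0.608 CPM in control ones. Parts 14 and 15 (chr4:86658684-86658715 and chr4:86658645-86658683) were lower, with 1.53, 2.58 and 2.26 CPM against 2.95, 4.11 and 6.61 CPM on part 14, and 1.68, 1.90 and 1.13 CPM against 2.87, 3.75 and 4.64 CPM on part 15. The 194-base part 22, downstream of the other exons (chr4:86648386-86648579), had 43 counts in all.

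**Figure D1:**
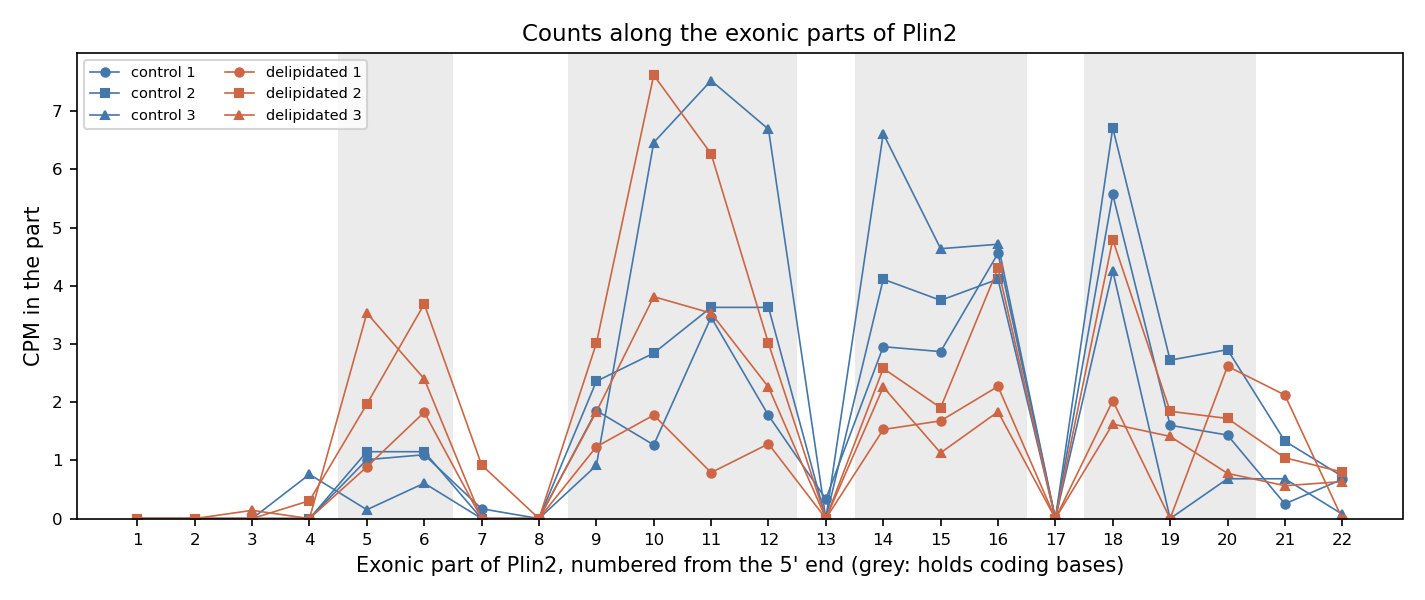
CPM in each exonic part of Plin2 (y axis), with parts numbered from the 5′ end (x axis), 1 line per library, controls in blue and delipidated in orange, and parts that hold coding bases shaded grey. Coding parts held 94.2% of the counts, and parts 1 and 2 had 0 in all 6 libraries.

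Plin3, the other perilipin of most tissues, found in the cytosol and on nascent droplets (ENSMUSG00000024197, reverse strand, chr17:56278962-56290511), had 6.07, 7.86 and 0.304 CPM in the control libraries and 8.69, 6.08 and 5.72 CPM in the delipidated libraries. Control replicate 3 was far below the others, with 4 counts on 1 of the 8 parts, while the 5 other libraries lay between 72 and 176 counts. It had a log2 fold change of 0.52 (standard error 0.91) and an adjusted p-value from edgeR of 1.00. Without control replicate 3 it was -0.031, so its sign rested on that library. It was 1.099 without control replicate 2, 0.31 without delipidated replicate 1 and 1.34 with limma-voom.

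Plin1, the coat of large droplets in fat cells (ENSMUSG00000030546, reverse strand, chr7:79720218-79732903), had 42, 94 and 19 counts in control replicates and 0, 159 and 22 in delipidated ones. The highest and the lowest library were both delipidated, and the groups overlapped. Its levels were 3.56 ± 2.12 CPM in the control and 3.77 ± 5.25 CPM in the delipidated libraries (SD, n = 3 each), and the 0 counts of delipidated replicate 1 allow up to 0.148 CPM. Counts lay on 9, 13 and 3 of 21 parts in the control and on 0, 11 and 3 in the delipidated libraries. In delipidated replicate 2, parts 8, 9 and 11 had 18 counts each and parts 12 and 13 had 15 each. Part 10 had 0 counts there, part 14 had 13 and part 16 had 41. Its log2 fold change was 0.082 (standard error 1.37; adjusted p = 1.00, edgeR), and it was -2.20 without delipidated replicate 2 and -0.30 without control replicate 3. Without control replicate 2, delipidated replicate 1 or delipidated replicate 3 it was 0.60, 0.67 or 0.45.

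Plin4, a perilipin with a long repeat that binds nascent droplets (ENSMUSG00000002831, reverse strand, chr17:56100591-56109803), had 1.94, 3.08 and 5.17 CPM in the control and 4.94, 2.09 and 1.62 CPM in the delipidated libraries. The groups overlapped over nearly their whole range. Its log2 fold change was -0.23 (standard error 0.89; adjusted p = 1.00, edgeR), and it was 0.20 without control replicate 3 and 0.047 without delipidated replicate 3. It was -0.50 without control replicate 1, -0.87 without delipidated replicate 1 and -0.049 without delipidated replicate 2. Part 12, which took 40.8% of the counts of Plin4, overlaps by a few bases the last exon of Hdgfl2 on the opposite strand, so reads of the 2 genes there cannot be told apart. Hdgfl2 had 146, 164 and 130 CPM in the control and 307, 250.3 and 209.95 CPM in the delipidated libraries, with no overlap (log2 fold change 0.80, standard error 0.22; adjusted p = 1.00, edgeR). With overlapped parts left out, an alternative chosen after seeing the data, the log2 fold change of Plin4 was -0.070.

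Plin5, which links droplets to mitochondria in oxidative tissues (ENSMUSG00000011305, reverse strand, chr17:56111601-56117596), had 6, 50 and 95 counts in control replicates and 11, 15 and 0 in delipidated ones. Control replicates 2 and 3 were above all delipidated libraries, but control replicate 1 lay among them, so the groups overlapped. The levels were 0.506, 3.02 and 7.22 CPM in the control and 0.543, 0.921 and 0 CPM in the delipidated embryos (p = 0.3, two-sided exact permutation). Plin5 had a log2 fold change of -2.85 (standard error 1.50) and a 95% interval from -6.13 to 0.43, and the adjusted p-value from edgeR was 1.00. Without control replicate 3 it was -1.84. DESeq2's Wald test gave an adjusted p-value of 0.621, the lowest over the alternatives, and the highest was 1.00. In control replicate 3, the summed levels of the cumulus and granulosa markers (113 CPM) and of the stromal markers (28.9 CPM) were also at their highest, but 4 of 14 and 3 of 7 single markers peaked there. Most of these sums came from Cyp11a1 (49.6 CPM) and Hsd3b1 (46.1 CPM), the second named after its values were seen, and from Vim (22.8 CPM), while 6 of the 14 cumulus and granulosa markers were at 0 there. Cumulus cells had been stripped from the zygotes with hyaluronidase, and the part of either cell type in the Plin5 counts was not tested.

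Cideb, the CIDE gene known from liver (ENSMUSG00000022219, reverse strand, chr14:55754045-55758458), had 77, 171 and 61 counts in control replicates and 78, 78 and 51 in delipidated ones, or 6.50, 10.3 and 4.64 CPM and 3.85, 4.79 and 3.60 CPM. Control replicate 2 was the highest, and delipidated replicate 2 lay above control replicate 3, so the groups overlapped (p = 0.2, two-sided exact permutation). Cideb had a log2 fold change of -0.81 (standard error 0.64) and a 95% interval from -2.22 to 0.60 (adjusted p = 1.00, edgeR), and it was -0.45 without control replicate 2. Of its 516 counts, 69.8% lay on 5 parts that overlap the last exon of Nop9, a gene for a nucleolar protein, on the opposite strand. That exon of Nop9 (chr14:55753641-55755500) had 149, 229 and 108 counts in control replicates and 186, 86 and 121 in delipidated ones. On the 3 parts of Cideb outside Nop9 there were 20, 48 and 25 counts in control replicates and 26, 35 and 2 in delipidated ones, and the groups overlapped there too.

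Cidea, known from brown fat (ENSMUSG00000024526, forward strand, chr18:67343564-67367794), had 12 counts in control replicate 2 and 37 in delipidated replicate 1, and 0 in the other libraries. The 37 counts sat on part 4 of 5. Cidec, which makes the large droplet of white fat cells (ENSMUSG00000030278, reverse strand, chr6:113424634-113435760), had 1, 3 and 0 counts in control replicates and 0, 0 and 15 in delipidated ones. Neither gene passed the filter on low counts, and with edgeR run without it the adjusted p-values were 0.940 for Cidea and 0.911 for Cidec. Both were at or near 0 in most libraries at this depth.

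**Figure D2:**
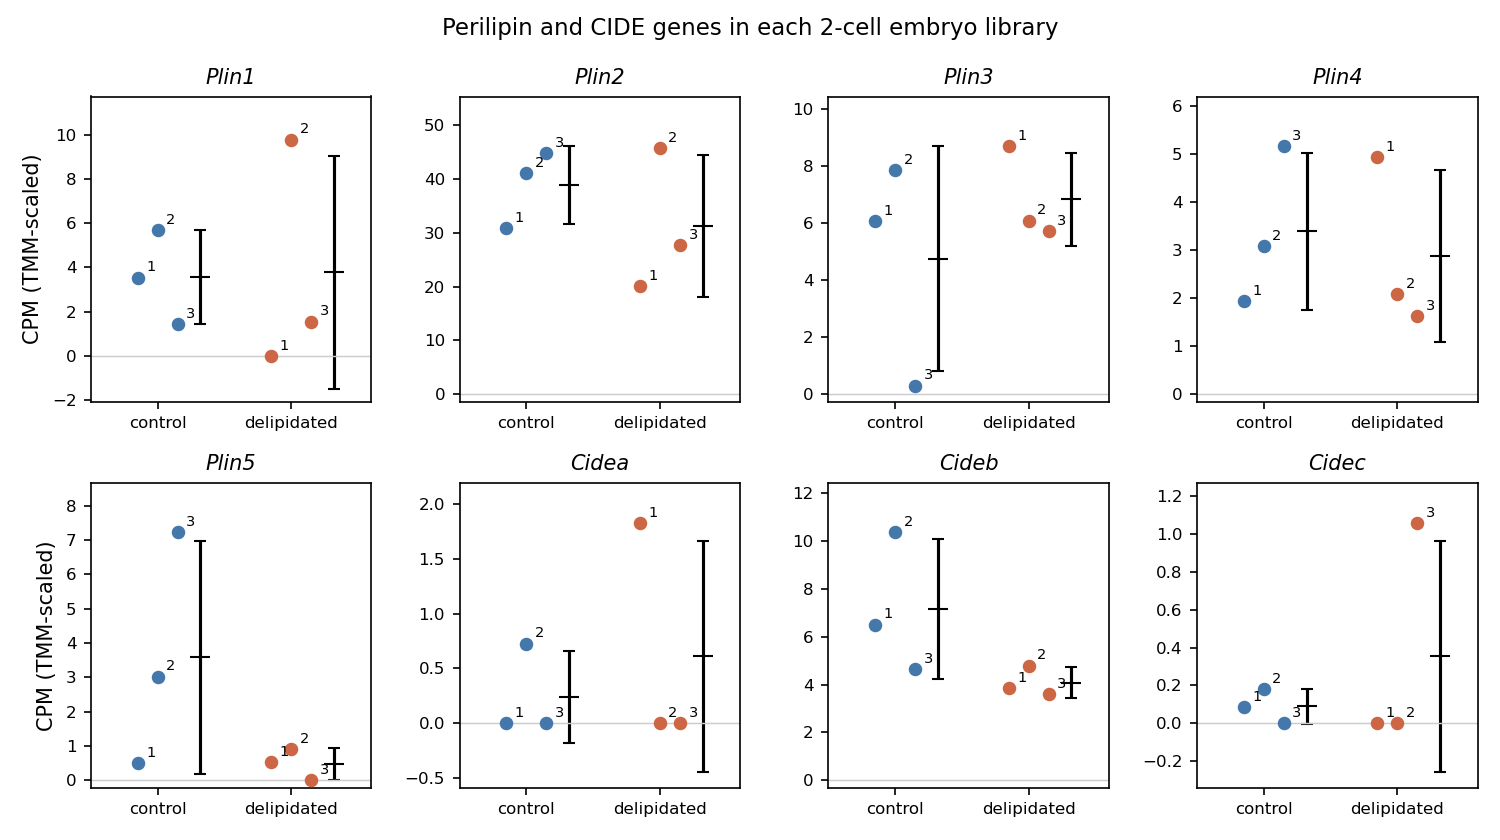
CPM after TMM scaling (y axis) of each of the 8 genes in the 3 control (blue) and 3 delipidated (orange) libraries, numbered by replicate, each panel with its own scale, and the mean with the SD in black. Plin2 lay between 20.05 and 45.8 CPM, and the groups overlapped for all 8 genes.

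Levels of different genes were compared per kb of summed exonic parts, as means over the 6 libraries. A read that crosses parts counts in each, so a gene cut into more parts for its length can get a higher value. Plin2 had 22 parts in 3512 bases, and Plin4 had 12 in 5777 bases. When the part with most counts stood for each gene, as given below, the order under Plin2 changed. How much of that change came from reads counted in more than 1 part was not tested. Plin2 came first at 9.98 ± 2.96 CPM per kb, followed by Cideb at 3.76 ± 1.69, Plin3 at 2.68 ± 1.36, Plin5 at 0.976 ± 1.32, Plin1 at 0.788 ± 0.771, Plin4 at 0.544 ± 0.270, Cidea at 0.365 ± 0.640 and Cidec at 0.119 ± 0.225 CPM per kb (SD, n = 6 each). Of the Cideb counts, 69.8% lay on parts that overlap Nop9, so the level, share and place of Cideb may include reads of Nop9. Plin2 was above Cideb in 6 of 6 libraries, but the lowest Plin2 value, 5.71, was under the highest Cideb value, 6.93, so the ranges overlapped for all neighbours in this order. The order also differed between the groups. In the control libraries Cideb (4.79 ± 1.95 CPM per kb) came before Plin3 (2.199 ± 1.83) and Plin5 (1.72 ± 1.63), whereas in the delipidated libraries Plin3 (3.16 ± 0.751) came before Cideb (2.73 ± 0.421), and Plin5 (0.234 ± 0.222) came after Plin1, Cidea and Plin4 (SD, n = 3 each). The values of Cideb and Plin3 overlapped in both groups, and the change of order was not tested. Within a library the ratio of Plin2 to Cideb was between 1.69 and 4.10. Of all tested genes, 71.2% had a lower mean level per kb than Plin2 and 51.6% a lower one than Cideb. These levels divide by the bases of all annotated parts, so they depend on how a gene is annotated. Exons outside transcripts of the consensus coding set (CCDS) made up 1624 of the 3512 bases of Plin2, with 2.55% of its counts. For Plin1 they made up 1760 of 4649 bases, with 11.6% of its counts. On its coding parts alone, Plin2 was between 12.5 and 30.2 CPM per kb. Of the summed level per kb of the 8 genes, Plin2 held 52.4 ± 8.63% in the control and 51.1 ± 11.4% in the delipidated libraries (SD, n = 3 each). Plin3 held 10.3 ± 8.38% and 19.5 ± 7.04%, Plin5 7.89 ± 7.94% and 1.25 ± 1.09%, and Cideb 22.2 ± 6.23% and 16.3 ± 1.45%, and the libraries of the groups overlapped for each of the 4. With the part with most counts in place of the sum, Plin2 stayed first at 16.7 CPM per kb, but the order below it changed, with Plin3 at 6.94, Cideb at 5.96, Plin1 at 5.73, Cidea at 2.01, Plin5 at 0.904, Plin4 at 0.741 and Cidec at 0.0536.

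The genes with the pattern most like Plin2 over the 6 libraries, by Pearson's r of log2(CPM + 1) among 8127 genes, were Zfp791 (r = 0.996), Polr2l (r = 0.993) and Zfp62 (r = 0.990). For Cideb they were Rpl10 (r = 0.986), Pi4k2b (r = 0.984) and Slmap (r = 0.978). With 6 libraries many genes reach such values, 17 genes at 0.95 or more for Plin2 and 12 for Cideb, and by Spearman's rho 1 of the 3 genes was shared for each.

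Genes that act on or beside the coat were taken as a list of 26, of which 25 were matched by symbol and 22 tested. The list also holds transcription factors of lipid metabolism, Mlxipl among them, and Mlxipl was put on it with earlier results for it known. With edgeR, 0 were called, and 2 were higher and 0 lower at an unadjusted p-value under 0.05, against 1.15% and 1.74% of all genes tested. DESeq2 called 1, Mlxipl. Fold changes were positive for 11 and negative for 11, with a median of 0.014 on the log2 scale, against 8004 and 8016 of all tested genes with a median of -0.000726. Leaving out 1 library moved the median of the list between -0.096 and 0.10. The delipidated libraries lay above every control library for 2 of the 22 tested genes, Mgll and Mlxipl, and below for 1, Bscl2, against 3.81% and 5.05% of all genes tested. G0s2, an inhibitor of the main triglyceride lipase, had 0 counts in all 6 libraries.

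Mgll, the lipase that splits monoacylglycerol, had 12.8, 3.21 and 1.14 CPM in the control and 15.3, 27.6 and 22.0 CPM in the delipidated libraries. All delipidated libraries were above the control libraries, with control replicate 1 closest. Mgll had a log2 fold change of 1.92 (standard error 0.74), and the adjusted p-value from edgeR was 1.00. It was 3.31 without control replicate 1 and 1.43 without control replicate 3. Mlxipl, which encodes ChREBP, had 64.3, 45.5 and 50.8 CPM in the control and 122, 196 and 89.4 CPM in the delipidated libraries. For Mlxipl the log2 fold change was 1.34 (standard error 0.31), and adjusted p-values were 1.00 by edgeR and 0.0285 by DESeq2, within a range from 0.00426 to 1.00 over the alternatives.

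Bscl2, the seipin gene of droplet budding, had 47.3, 57.5 and 43.7 CPM in the control and 34.7, 30.4 and 36.3 CPM in the delipidated libraries, with no overlap. Its log2 fold change was -0.55 (standard error 0.30; adjusted p = 1.00, edgeR). Pnpla2, the main triglyceride lipase, and its activator Abhd5 had log2 fold changes of -0.83 and -0.73 with standard errors of 0.62 and 0.69. Their levels were 14.5 ± 6.23 and 8.18 ± 5.21 CPM for Pnpla2 and 12.5 ± 5.67 and 7.51 ± 5.10 CPM for Abhd5 in control and delipidated libraries (SD, n = 3 each), and the groups overlapped for both. The log2 fold change of Pnpla2 was -0.44 without delipidated replicate 1 and -1.40 without delipidated replicate 3, and that of Abhd5 was -0.37 without control replicate 1, -0.27 without delipidated replicate 1 and -1.20 without delipidated replicate 2. Dgat1 and Dgat2, the enzymes of the last step of triglyceride synthesis, had log2 fold changes of 0.034 and -0.44 with standard errors of 0.68 and 0.98, and signs that changed with the processing. Dgat1 was at -0.37 without control replicate 1, -0.077 without control replicate 2, 0.81 without control replicate 3, 0.41 without delipidated replicate 1 and -0.49 without delipidated replicate 3. Dgat2 was at -0.98 without control replicate 1, -0.13 without control replicate 2, 0.028 without control replicate 3, and -0.17, -1.0005 and -0.27 without delipidated replicates 1, 2 and 3. Faf2 and Rab7, both found on droplets, had log2 fold changes of 0.43 and 0.27 with standard errors of 0.37 and 0.23. That of Faf2 was 1.02 without control replicate 2, 0.21 without control replicate 1 and 0.22 without control replicate 3. That of Rab7 was 0.52 without control replicate 1, 0.11 without control replicate 2 and 0.058 without delipidated replicate 3.

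**Figure D3:**
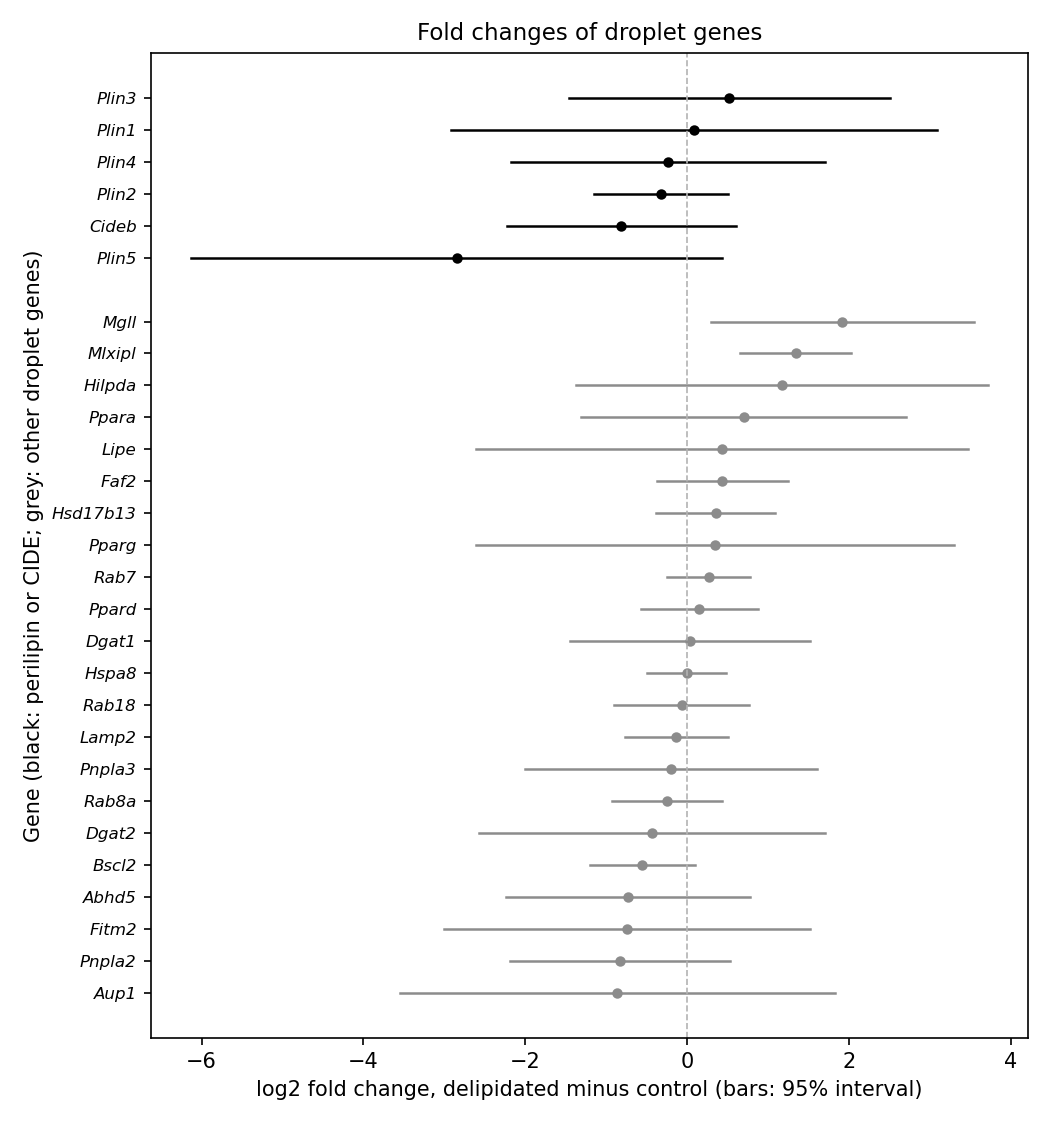
Log2 fold change of delipidated against control embryos (x axis) with 95% intervals from edgeR for the 6 tested perilipin and CIDE genes (black) and the 22 other tested droplet genes (grey), 1 gene per line. The interval of each black gene crosses 0, and those of Mgll and Mlxipl do not.

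Markers were used to check the labelled stage and to look for other cells that carry perilipins. All 11 oocyte and subcortical maternal complex genes were counted in every library, with sums of 1415, 953 and 1366 CPM in the control and 1091, 1263 and 1590 CPM in the delipidated libraries, Oosp1 being the most abundant. The 10 genes of 2-cell stage activation summed to 411, 161 and 384 CPM and to 254, 326 and 426 CPM, with Zfp352 the most abundant, and both lists overlapped between the groups. Of 6 adipocyte markers, Adipoq was at 0 in all libraries, and the sum was between 0 and 2.42 CPM with Ucp1 the most abundant. The 5 hepatocyte markers summed to between 0.198 and 3.88 CPM, Apob being the most abundant and Apoa1 at 0.

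Other lists differed between libraries. The 14 cumulus and granulosa markers summed to 5.40, 10.4 and 113 CPM in the control and 2.47, 9.83 and 12.4 CPM in the delipidated libraries, with Foxl2 and Ptx3 at 0, and control replicate 3 stood apart. There Cyp11a1, the most abundant of the list, was at 49.6 CPM and Hsd3b1 at 46.1 CPM, and neither exceeded 0.422 CPM in another library. The 7 stromal markers summed to 18.3, 18.7 and 28.9 CPM in the control and 1.93, 3.50 and 4.09 CPM in the delipidated libraries, with no overlap. Vim was their most abundant, at 12.8, 8.77 and 22.8 CPM in the control and 0 in each delipidated library (adjusted p = 0.0721, edgeR), and DESeq2 called it. The 6 leukocyte markers summed to between 2.42 and 10.5 CPM, with Coro1a the most abundant, and the 5 oviduct epithelium markers to between 82.7 and 227 CPM, nearly all from Epcam. The part of other cells in the levels of the perilipin and CIDE genes was not tested, and fewer cells of a type and less RNA per cell cannot be told apart.

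Promoter windows of RefSeq (GRCm38.p6, 250 bases before to 50 after the gene start) were matched for 7 of the 8 genes. The E-box CACGTG was found in the window of Plin2, at position -4 from the start, and in 7.15% of all 32851 windows. AGGTCA, searched on both strands, was found in windows of Plin2 and Plin5 and in 16.3% of all windows. A pair of AGGTCA with 1 base between was in none of the windows of these genes and in 0.0396% of all, and TATAAA was in the Cideb window and in 13.6% of all. The Plin2 window is shown because Plin2 was the most abundant member while its annotated first exon, which begins here, had no counts. Capitals mark CACGTG and AGGTCA on either strand, at chr4:86670010-86670309 on the reverse strand.
Plin2: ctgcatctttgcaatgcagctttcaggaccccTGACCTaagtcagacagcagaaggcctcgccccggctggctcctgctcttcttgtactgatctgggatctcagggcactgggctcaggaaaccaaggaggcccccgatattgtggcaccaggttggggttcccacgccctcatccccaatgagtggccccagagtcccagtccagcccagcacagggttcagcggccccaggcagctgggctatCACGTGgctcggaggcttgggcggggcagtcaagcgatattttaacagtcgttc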

How the data were processed

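RNA of 6 libraries was sequenced after depletion of ribosomal RNA. Per the labels and the methods, reads were processed with bcl2fastq 2.20, Trimmomatic 0.36 and STAR 2.5.2b, and the authors deposited raw counts of unique reads in exons from featureCounts, given for 425461 exonic parts per library. The genome build is not given in the sources used here; identifiers and coordinates matched GRCm38. Parts were summed per gene, and of 33309 parts under joined identifiers 27968 were assigned to the 1 gene they overlap and the others left out, which removed between 2.49% and 2.57% of counts. At 8 places with parts on both strands and at least 20 counts, the median ratio of lower to higher count was 1, so strands were not separated.

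The comparison of delipidated with control embryos used R 4.3.3 and edgeR 4.0.16 (filterByExpr, minimum count 10, minimum total 15, TMM, quasi-likelihood test, Benjamini-Hochberg adjustment over all genes), without covariates; the common biological coefficient of variation was 0.663. Single genes were tested by exact two-sided permutation of log2(CPM + 1). Alternatives used DESeq2 1.42.0 and limma 3.58.1, other scalings, filters and summaries of parts, and each library left out. Counts were also simulated with the spread that edgeR had estimated, and the changed genes were not taken from those with the lowest means. Of 50 genes changed at each of 2, 4, 8 and 16-fold, edgeR called 2, 18, 28 and 33, with 2 unchanged genes called. DESeq2 called 11, 26, 31 and 38, with 63 unchanged genes called. Most genes changed 2-fold, the fold size of the calling threshold, were thus missed by both. Members and lists were chosen with earlier results of these data known. Named were all members, the 6 other droplet genes with the smallest p-values and 5 set ones, the most abundant gene of each marker list, and the 3 genes most like Plin2 and Cideb among those with a mean of at least 10 CPM.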

Additional observations from a re-analysis of the deposited data

How the results depend on the processing

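The alternative without parts overlapped on the opposite strand was chosen after seeing the data. The counts of 0 genes called higher and 0 lower became 5 and 25 with edgeR without a filter on low counts and 9 and 40 with DESeq2 without a filter, and in both 1 gene of the droplet list was called higher, Mlxipl, listed with its earlier result known. No perilipin or CIDE gene was called in any setting. The log2 fold changes of Plin2, Plin5 and Cideb kept their sign in every setting in which they were tested. Plin1 changed sign with limma-voom (-2.51), and Plin3 was at 1.34 there. With the part with most counts Plin1 was at 0.32, Plin2 at -1.02, Plin3 at 0.33 and Plin4 at -0.52, and Plin4 was at -0.070 without overlapped parts. For Dgat1 the sign changed with total count scaling (-0.012) and with the part with most counts (-0.25), for Abhd5 with the part with most counts (0.41), and for Dgat2 with the part with most counts (0.29) and limma-voom (0.13). Pnpla2 was at -0.41 and Faf2 at 0.28 with the part with most counts. Leaving out each library in turn gave log2 fold changes from -2.20 to 0.67 for Plin1, -0.031 to 1.099 for Plin3, -0.87 to 0.20 for Plin4, -0.49 to 0.81 for Dgat1 and -1.0005 to 0.028 for Dgat2, and 1 to 2 other droplet genes higher at an unadjusted p-value under 0.05. Taking the part with most counts moved the median of the other droplet genes to 0.21 and the mean levels per kb to 5.73 for Plin1, 16.7 for Plin2, 6.94 for Plin3, 2.01 for Cidea and 5.96 for Cideb. Plin5 failed the filter there, and Plin4 and Plin5 failed a mean count of at least 50. The causes were not tested.

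With the replicate block the log2 fold change of Plin1 was -1.05, that of Plin3 1.18 and that of Dgat2 0.22, and 0 genes were called. Deviations of same-numbered libraries correlated at -0.133, 0.106 and 0.0651, and libraries did not all correlate best with their own number, so the numbers were not taken to pair them. Counts were low, at most 562 summed over the 6 libraries, for each member but Plin2 (3179), and a missing call does not show equal levels.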
